A study of Mustela putorius furo and Mus musculus with 4 samples.

Results

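Neurotrophic factors and their receptors were followed in cultured ferret and mouse astrocytes. The group held 9 genes chosen by name: the ligands Bdnf, Ntf3, Gdnf, Cntf and Mdk, and the receptors Ntrk2, Ntrk3, Ngfr and Gfra1. All 9 were found, once in each species, among 13373 gene symbols shared by the ferret and mouse values, and all 9 passed the filter of a mean of at least 1 FPKM in at least one species, as did 10204 symbols in all. FPKM counts RNA fragments relative to exon length and to the fragments mapped in a library, so levels of different genes can be set side by side.

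RNA was sequenced from 2 libraries of primary ferret astrocytes (Mustela putorius furo, postnatal day 1) and 2 libraries of primary astrocytes from ICR mice of postnatal days 1 to 3. Cortical cells were grown as mixed glia for 14 days in medium with 10% fetal bovine serum, shaken overnight and replated, and serum was withdrawn on day 3, with harvest on day 7. The serum-free medium of both species held heparin-binding EGF-like growth factor at 5 ng/ml, as well as transferrin, albumin, putrescine, progesterone, selenite and N-acetyl cysteine. The additions listed for this medium include no neurotrophic factor. Cells of 1 ferret pup were spread over 4 flasks, whereas cells of 4 mouse pups were pooled in 1 flask, and the sources do not say whether the duplicate libraries came from separate cultures. The p-values therefore measure the spread between these libraries, which may be technical. Species, genome annotation and culture cannot be told apart in this design.

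Neurotrophic factors are proteins that keep neurons alive and shape their growth. BDNF and neurotrophin-3 (the product of Ntf3) belong to the neurotrophin family and act through Trk receptor tyrosine kinases, TrkB (Ntrk2) for BDNF and TrkC (Ntrk3) for neurotrophin-3, while the low-affinity receptor p75 (Ngfr) binds all members of that family. GDNF binds GFRα1 (Gfra1) and signals through the kinase RET, CNTF uses a receptor of the interleukin-6 type, and midkine (Mdk) is a heparin-binding growth factor of the developing brain. Astrocytes are known as a source of several of these factors and express TrkB mainly in a truncated form without the kinase. The values are sums over the isoforms of a gene, so the truncated and the full-length receptor were not separated.

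A gene was called where limma on log2(FPKM + 1) gave a Benjamini-Hochberg adjusted p under 0.05 over all 10204 genes and the log2 difference was above 1 in size. Genes are named as higher or lower in ferret astrocytes by this rule. Folds are ratios of mean FPKM without the added 1. For genes with low values they are therefore larger than the log2 difference implies. The cultures expressed astrocyte genes, and the libraries also differed in genes of other cells. Gfap, an intermediate filament of astrocytes, stood between 1429 and 1546 FPKM in all 4 libraries, but the astrocyte markers were not equal between the species. Of the 11 tested, 6 were lower and 1 was higher in ferret astrocytes, and the median of their log2 differences was -1.16. Slc1a2, a glutamate transporter, had 0.133 and 0.178 FPKM in ferret against 47.1 and 51.8 in mouse libraries, and Aqp4, the water channel of astrocytes, had 24.8 and 21.8 against 202 and 210 FPKM. S100b was the higher marker, with 247 and 244 against 57.3 and 63.1 FPKM. Slc1a3 and Gja1 lost their lower call, and Aldoc was called higher, under each of the 3 other scalings. Of 11 microglial markers tested, 11 were lower in ferret astrocytes, with summed levels of 10.8 and 9.17 FPKM in ferret against 547 and 540.3 in mouse libraries. Cx3cr1, a chemokine receptor of microglia, is listed at 0 in both ferret libraries. Of 10 meningeal fibroblast markers tested, 10 were lower in ferret astrocytes as well (sums of 141 and 125 against 1620 and 1596 FPKM). Schwann cell markers went the other way, with 6 of 9 higher and 1 lower in ferret astrocytes and sums of 182 and 186 FPKM against 21.7 and 20.8. Among the oligodendrocyte lineage markers, 3 of 9 were higher and 0 lower, with sums of 171 and 189 FPKM in ferret against 70.3 and 70.3 in mouse libraries. Sox10 is in both of these lists. Without it, 5 of 8 Schwann cell markers were higher and 1 lower, with sums of 156 and 155 against 21.5 and 20.5 FPKM. Of the 5 neuronal markers tested, 4 were higher in ferret astrocytes. Sums over the 9 shared neuronal markers were 32.8 and 34.0 FPKM in ferret and 32.6 and 33.8 in mouse libraries. The sums of each list include shared markers under the filter, where there were any. No gene of the microglial or fibroblast list lost its call when the scaling between species was changed, while Cnp and Pdgfra of the oligodendrocyte lineage list were also called higher under each of the 3 other scalings. The part of these cells in the results on neurotrophic genes was not tested. In RNA of whole cultures, fewer cells of a type and less RNA per cell cannot be told apart. The paper also counted cells by immunostaining and found nearly all to be astrocytes in both species. It gave a smaller share of microglia in ferret than in mouse cultures, and a small share of neurons in ferret cultures. Those counts were made in medium with serum, not in the serum-free cultures that were sequenced.

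By the same rule 3 of the 9 genes were higher in ferret astrocytes (Ntf3, Ngfr and Mdk), 3 were lower (Bdnf, Ntrk2 and Gfra1), and 3 were not called (Gdnf, Ntrk3 and Cntf). Of all genes tested, 13.1% were called higher and 30.1% lower, 43.2% in either direction. The split of these calls rests on the scaling, with 1336 genes higher and 3069 lower as deposited, 2197 and 2536 with library sums of 1000000, 1954 and 2215 with sums set to their mean, and 2107 and 2040 after quantile normalization. The adjusted p alone was under 0.05 for all 9 genes, as for 88.6% of all genes. The libraries of the species did not overlap for any of the 9, which also held for 94.1% of all genes. The median log2 difference was -0.13 over the 9 genes and -0.35 over all genes. Whether the group differs from other genes was not tested. With 2 libraries a species, the smallest two-sided p that exact permutation allows for one gene is 0.333.

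**Figure D1:**
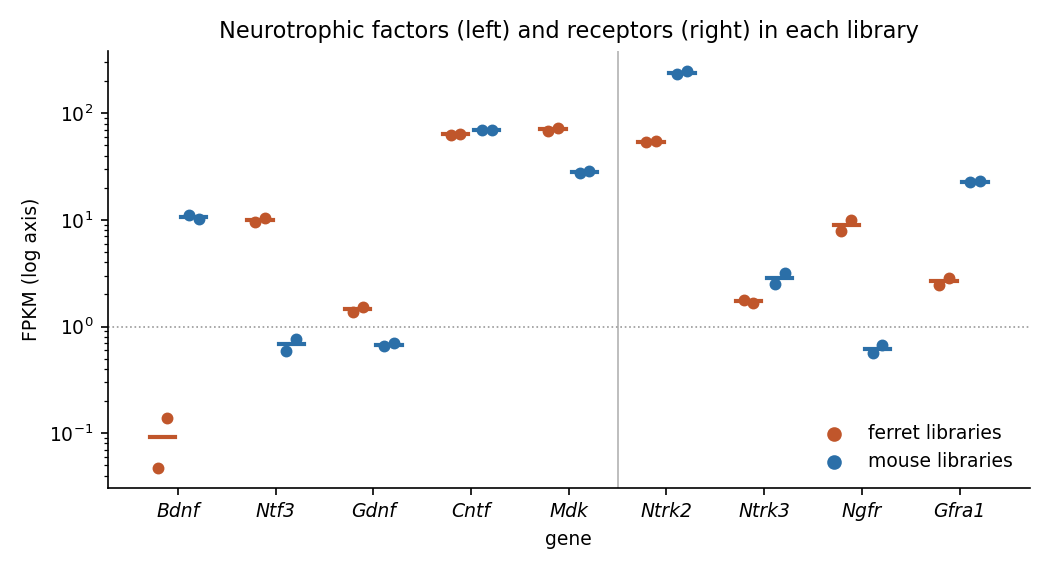
FPKM (log axis) of the 5 ligand genes and the 4 receptor genes in each library, with ferret points on the left and mouse points on the right of each gene and a bar at the mean of 2 libraries. The dotted line marks 1 FPKM. Bdnf, Ntrk2 and Gfra1 sit higher in the mouse libraries and Ntf3, Ngfr and Mdk higher in the ferret libraries, while the points of Cntf lie close together, between 62.6 and 70.5 FPKM.

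Both neurotrophins of the group were close to 10 FPKM in one species and under 1 FPKM in the other, in opposite directions. Bdnf reached 11.2 and 10.3 FPKM in mouse libraries, against 0.047 and 0.138 FPKM in ferret libraries. Ntf3 reached 9.64 and 10.4 FPKM in ferret libraries, against 0.590 and 0.771 FPKM in mouse libraries. The species did not overlap for either gene. The log2 difference of Bdnf (ferret minus mouse) was -3.43 (standard error, SE, of 0.083, adjusted p = 2.48e-10 by limma), and that of Ntf3 was 2.72 (SE 0.085, adjusted p = 1.22e-09 by limma). Mean FPKM of Ntf3 was 14.7-fold higher in ferret astrocytes. No fold is given for Bdnf because its ferret values were close to 0 and the number of reads behind them was not examined. With a pseudocount of 0.1 instead of 1 its log2 difference was -5.85. The mouse Bdnf gene (GRCm38 chr2:109674700-109727007, plus strand) has 11 annotated transcripts. An antisense gene, Gm45346, overlaps 14.4% of its exonic length, and whether the quantification used the strand of the reads is not stated. Mouse Ntf3 (chr6:126101412-126166910, minus strand) shares no exon with another annotated gene.

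Midkine had the highest level of the 9 genes in ferret astrocytes. Its values were 68.5 and 73.5 FPKM in ferret and 27.6 and 28.6 FPKM in mouse libraries. All ferret values lay above all mouse values, and the means differed by 2.53-fold, a log2 difference of 1.31 (SE 0.062, adjusted p = 2.00e-08 by limma). In mouse astrocytes Mdk took the third place of the 9 genes, after Ntrk2 and Cntf. The mouse gene (chr2:91929805-91932297, minus strand) has 6 exonic regions and 4 annotated transcripts.

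Gdnf was low in both species. The 2 ferret values were 1.37 and 1.53 FPKM and the 2 mouse values 0.656 and 0.694 FPKM. The ferret values were above the mouse values, with means 2.15-fold apart, but the log2 difference of 0.55 (95% interval 0.37 to 0.72, adjusted p = 9.20e-05 by limma) was under the size required for a call. On this scale differences of genes near 1 FPKM are understated. When the shared symbols of each library were set to a sum of 1000000, which also lessens the weight of the pseudocount, the log2 difference was 1.17 and Gdnf was called higher. The mouse gene (chr15:7810846-7837575, plus strand) has 1 annotated transcript.

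Cntf was among the most abundant of the 9 genes in either species and differed little. Ferret libraries held 62.6 and 64.5 FPKM and mouse libraries 69.3 and 70.5 FPKM. The log2 difference was -0.13 (95% interval -0.26 to -0.01, adjusted p = 0.0455 by limma) with FPKM as deposited, and it turned to 0.25 after either rescaling and to 0.17 after quantile normalization, so its direction rests on the scaling between species. The mouse level is also uncertain for another reason. Cntf (chr19:12763660-12765632, minus strand) lies within the annotated span of Zfp91 on the same strand, and 78.9% of its exonic length is also exon of Zfp91, a zinc finger gene. Reads from that stretch cannot be assigned to one gene by position or strand. The main value of mouse Zfp91 was 25.1 and 26.5 FPKM, and the ferret values used here hold no gene of that name. Whether a like overlap touches the ferret value of Cntf was not examined.

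Among the receptors, Ntrk2 and Gfra1 were lower and Ngfr was higher in ferret astrocytes. Ntrk2, the BDNF receptor, reached 231 and 251 FPKM in mouse libraries, against 53.2 and 54.6 FPKM in ferret libraries. It was the most abundant of the 9 genes in mouse astrocytes, and stood above 98.8% and 98.9% of the shared symbols in the 2 libraries. In ferret astrocytes it ranked after Mdk and Cntf. The means differed by 4.47-fold, a log2 difference of -2.14 (SE 0.062, adjusted p = 7.17e-10 by limma). The mouse gene occupies chr13:58806569-59133970 (plus strand). Its 10 annotated transcripts, 7 of them protein-coding, cover 19292 bases of exon, of which 2661 are coding. That length is taken over all transcripts together, whereas FPKM divides by the exon length of a transcript. Ferret gene lengths were not used here.

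Gfra1, the binding receptor for GDNF, reached 22.5 and 23.1 FPKM in mouse libraries, against 2.47 and 2.83 FPKM in ferret libraries. The species did not overlap, and the means differed by 8.61-fold (log2 difference -2.71, SE 0.076, adjusted p = 5.82e-10 by limma). The mouse gene occupies chr19:58235604-58455909 (minus strand), and an antisense gene, Gm16277, overlaps 7.60% of its exonic length. Its ligand gene Gdnf was not called. Within a library Gfra1 exceeded Gdnf by 1.80-fold and 1.85-fold in ferret and by 34.3-fold and 33.3-fold in mouse astrocytes, a ratio that does not depend on the scaling between species but does depend on gene models.

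Ngfr, which encodes p75, reached 7.92 and 9.91 FPKM in ferret libraries, against 0.566 and 0.674 FPKM in mouse libraries. Its means differed by 14.4-fold (log2 difference 2.61, SE 0.103, adjusted p = 5.70e-09 by limma), with every ferret value above every mouse value. This fold, like that of Ntf3, rests on mouse values under 1 FPKM. The mouse gene (chr11:95568818-95587735, minus strand) has 1 annotated transcript. p75 is also known as a protein of immature Schwann cells, and 6 of the 9 Schwann cell markers were higher in the same libraries. Of these, Pmp2, a lipid-binding protein of peripheral myelin, had 82.0 and 74.4 FPKM in ferret and 0.116 and 0.058 in mouse libraries. The paper lists Pmp2 as a ferret astrocyte gene that is also found in human astrocytes. By western blot it reported more PMP2 protein in ferret than in mouse astrocytes cultured with serum. Sox10, a transcription factor of Schwann cells and the oligodendrocyte lineage, had 26.3 and 30.9 FPKM in ferret and 0.231 and 0.304 in mouse libraries. Cdh19, an adhesion protein of Schwann cell precursors, was the 1 marker that was lower, with a mean of 1.22 FPKM in ferret and 9.15 in mouse libraries. Whether the Ngfr signal came from astrocytes was not tested.

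Ntrk3, the receptor for neurotrophin-3, was low and was not called. Its values were 1.79 and 1.67 FPKM in ferret and 2.49 and 3.19 FPKM in mouse libraries. The log2 difference was -0.49 (95% interval -0.71 to -0.27, adjusted p = 9.85e-04 by limma), and it shrank to -0.06 after quantile normalization (adjusted p = 0.606 by limma). The mouse gene (chr7:78175959-78738012, minus strand) has 20 annotated transcripts, 6 of them protein-coding. Its ligand gene Ntf3 was called higher in ferret astrocytes, as given above.

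**Figure D2:**
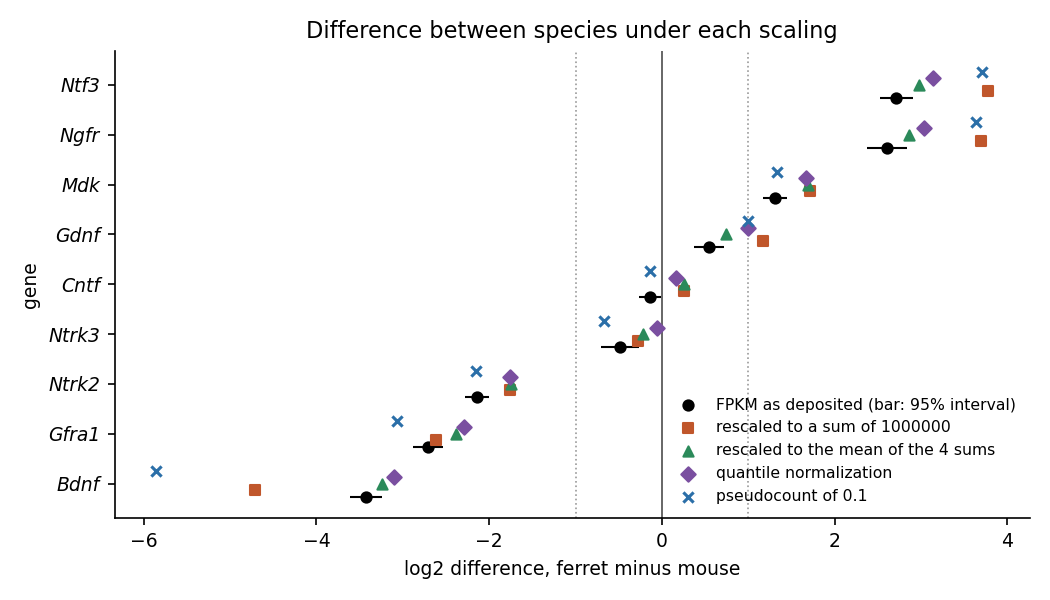
Log2 difference between species (ferret minus mouse) of the 9 genes with FPKM as deposited, with its 95% interval from limma, and under 4 alternatives. Dotted lines mark the size of 1 required for a call. Ntf3, Ngfr and Mdk stay above 1 and Ntrk2, Gfra1 and Bdnf stay below -1 under every alternative plotted, Gdnf lies between 0.55 and 1.17, and the points of Cntf fall on both sides of 0.

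The ratio of receptors within a library also differed between the species. Ntrk2 exceeded Ngfr by 6.72-fold and 5.51-fold in ferret and by 409-fold and 373-fold in mouse astrocytes. It exceeded Ntrk3 by 29.8-fold and 32.7-fold in ferret and by 93.0-fold and 78.7-fold in mouse libraries. The mouse ratios to Ngfr divide by low values, 0.566 and 0.674 FPKM. All of these ratios depend on gene models. Ngfr was above Ntrk3 in both ferret libraries and below it in both mouse libraries. Of the FPKM of all 9 genes together, Ntrk2 took 25.6% and 24.9% in ferret and 63.2% and 64.6% in mouse libraries, while Mdk took 33.0% and 33.5% in ferret and 7.55% and 7.34% in mouse libraries.

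Ordered by mean FPKM, the genes of ferret astrocytes were Mdk, Cntf, Ntrk2, Ntf3, Ngfr, Gfra1, Ntrk3, Gdnf and Bdnf, and those of mouse astrocytes were Ntrk2, Cntf, Mdk, Gfra1, Bdnf, Ntrk3, Ntf3, Gdnf and Ngfr. Neighbours in this order did not overlap between libraries, except Ntf3 and Ngfr in the ferret, and Ntf3, Gdnf and Ngfr at the low end in the mouse. The place of a gene among all shared symbols of its own library does not depend on the scaling between species. Bdnf stood above 15.4% and 20.3% of the shared symbols in ferret and above 61.7% and 59.5% in mouse libraries. Ntf3 stood above 65.9% and 67.1% in ferret and above 25.2% and 26.6% in mouse libraries. Gfra1 moved from 40.1% and 41.8% in ferret to 78.2% and 78.3% in mouse libraries. Ntrk3 held nearly the same place, with 36.4% and 35.7% in ferret and 35.3% and 38.1% in mouse libraries.

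**Figure D3:**
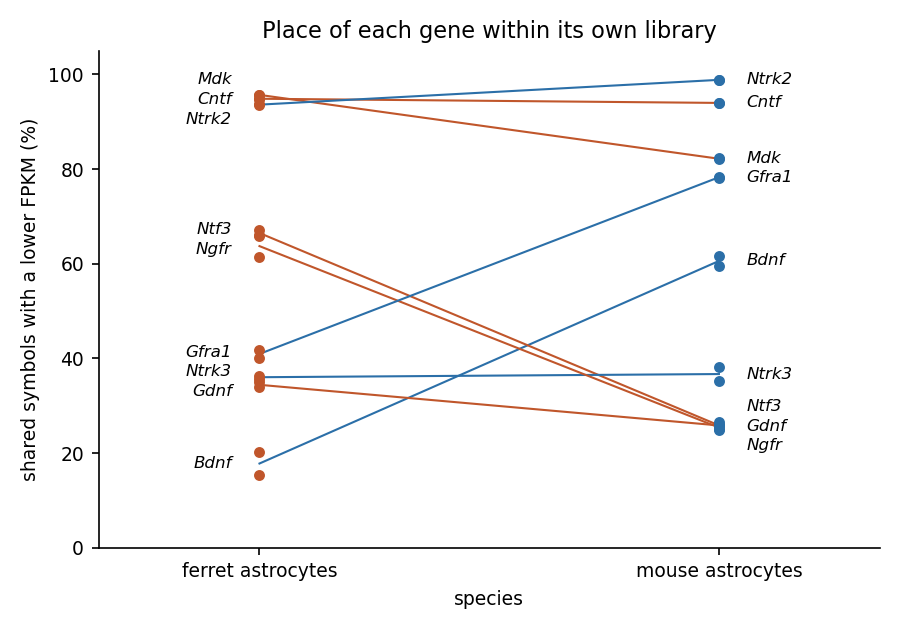
Percent of the 13373 shared symbols with a lower FPKM than each gene in its own library. Points are libraries, lines join the means of 2 libraries per species, and lines are orange where the place was higher in ferret and blue where it was higher in mouse astrocytes. Bdnf and Gfra1 climb towards the mouse, Ntf3 and Ngfr drop from above 60% to below 27%, and Ntrk3 stays near 36%.

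Other genes of the same pathways were read from lists grouped by function. Like the members, the lists were chosen with earlier results of these data known. Over 49 tested genes of 5 lists, 14 were called higher and 16 lower in ferret astrocytes, and 19 were not called. Of all genes tested, 13.1% were called higher and 30.1% lower. The median log2 difference was -0.46 over the 49 genes, beside -0.35 for all genes. Whether the lists differ from other genes was not tested. In the neurotrophin list 7 of 23 genes were higher and 4 lower. Genes of the sortilin family, sorting receptors of which several bind neurotrophins or their precursors, split in direction. Sorl1 had 1.48 and 1.15 FPKM in ferret and 30.4 and 30.7 in mouse libraries (log2 difference -3.77). Sort1, which encodes sortilin, a partner of p75 in binding proneurotrophins, was lower in ferret astrocytes too (9.57 and 8.85 against 38.7 and 40.4 FPKM, log2 difference -1.99), whereas Sorcs2 and Sorcs3 were higher, by log2 differences of 1.43 and 2.95. Sorcs1 was not called, with 7.61 and 9.23 FPKM in ferret and 9.94 and 11.0 in mouse libraries, and the sign of its log2 difference of -0.29 turned under each of the 3 other scalings. The adaptors and signaling proteins of Trk receptors went both ways. Shc1 was higher in ferret astrocytes (mean of 106 ± 8.8 against 40.3 ± 0.2 FPKM, SD, n = 2, log2 difference 1.37), as were Shc3 and Sh2b2, by 2.25 and 2.34. Sh2b1 was lower, with 8.68 and 8.36 against 19.2 and 19.4 FPKM (log2 difference -1.09), and lost the call under each of the 3 other scalings. Frs2 (-0.02), Frs3 (-0.86), Grb2 (-0.46), Gab1 (-0.57) and Plcg1 (0.03) were not called, except that Frs3 was called lower with library sums of 1000000 (-1.03), and the sign of Frs2 turned under all 3 scalings. The p75-interacting genes Bex3 and Maged1, the most abundant of the list, had log2 differences of -0.99 and -0.55 and were not called. Sort1, Sorcs1, Sorcs2, Shc3, Sh2b1, Sh2b2, Frs2, Frs3, Grb2, Gab1 and Plcg1 were named after their values were seen.

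In the GDNF list 4 of 7 genes were higher and 3 lower in ferret astrocytes. Ncam1, an adhesion molecule that also serves as a GDNF receptor, had 6.19 and 5.51 FPKM in ferret and 39.2 and 42.7 in mouse libraries (log2 difference -2.62, adjusted p = 7.10e-10 by limma). Gfra4 is listed at 0 in both ferret libraries and had 6.43 and 6.01 FPKM in mouse libraries. Ret, the signaling kinase of the family, was low in both, with 0.243 and 0.148 FPKM in ferret and 1.71 and 1.65 in mouse libraries, and was called lower (log2 difference -1.17) except after quantile normalization (-0.76). The adaptors of RET were higher in ferret astrocytes, with Dok5 at 33.5 and 32.2 against 6.73 and 6.48 FPKM (log2 difference 2.16) and Dok4 at 9.29 and 10.2 against 3.13 and 3.19 FPKM (log2 difference 1.37). Gfra2, the receptor for neurturin, was higher as well, by a log2 difference of 1.30. Ret and Gfra2 were named after their values were seen.

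In the CNTF receptor list 2 of 9 genes were higher and 4 lower in ferret astrocytes, while under each of the 3 other scalings 3 were higher and 2 lower. Cntfr, the binding subunit for CNTF, had 1.31 and 1.39 FPKM in ferret and 5.94 and 6.05 in mouse libraries (log2 difference -1.58, adjusted p = 2.10e-08 by limma), and Clcf1, another ligand of this receptor, had 4.58 and 4.96 against 23.6 and 23.3 FPKM (log2 difference -2.08). Both remained lower under these scalings. Il6st, which encodes the shared signaling subunit gp130, lost the call, at log2 differences from -0.79 to -0.75, as did the kinase gene Jak2, at differences from -0.89 to -0.76. Socs3, a feedback inhibitor of the pathway, was not called as deposited (log2 difference 0.96) and was called higher under these scalings, at differences from 1.34 to 1.37. Jak1, a relative of Jak2, had a log2 difference of 0.12 and was not called. Lifr and the ligand Lif were higher in ferret astrocytes, by log2 differences of 1.23 and 1.58. Stat3, the transcription factor of the pathway, had a log2 difference of -0.41 and was not called. Cntfr, Jak2, Socs3 and Lifr were named after their values were seen.

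In the midkine and pleiotrophin list 1 of 8 genes was higher and 3 were lower in ferret astrocytes. The higher gene was Ptn, which encodes pleiotrophin, the sister protein of midkine, with 277 and 299 FPKM in ferret and 87.0 and 93.0 in mouse libraries (log2 difference 1.67, adjusted p = 5.03e-09 by limma). Both genes of this ligand family were thus higher in ferret astrocytes. Of their receptors and binding proteins, Lrp1 (log2 difference -1.74) and the proteoglycan Sdc1 (-1.67) were lower, and Sdc4 (-0.96) and Ptprz1 (0.30), the latter the phosphatase receptor of pleiotrophin, were not called. Ptprz1 was named after its values were seen. Both genes of the MANF family, secreted factors of the endoplasmic reticulum, were lower in ferret astrocytes. Manf had 17.6 and 18.3 FPKM in ferret and 235 and 248 in mouse libraries (log2 difference -3.68, adjusted p = 2.98e-11 by limma), and Cdnf is listed at 0 in both ferret libraries and had a mean of 1.46 FPKM in mouse libraries.

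**Figure D4:**
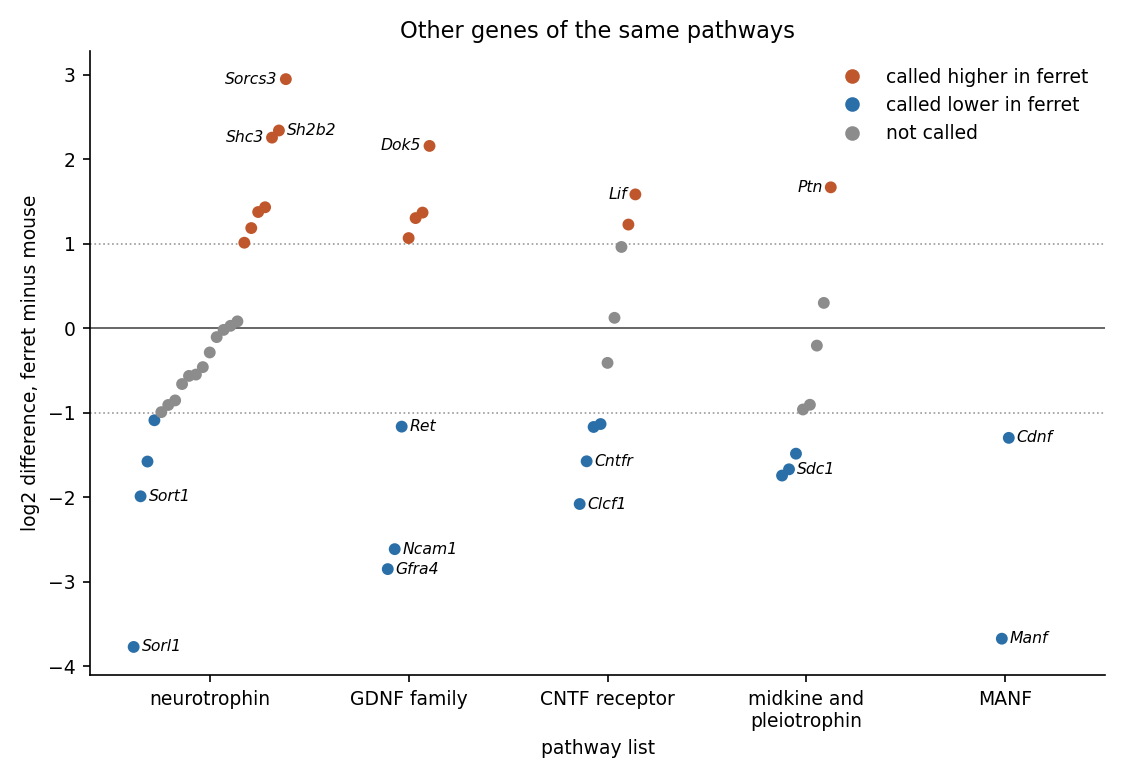
Log2 difference between species (ferret minus mouse) of the 49 other pathway genes tested, by list. Each point is a gene, orange where called higher and blue where called lower in ferret astrocytes, and grey where not called; dotted lines mark differences of 1. The points run from -3.77 (Sorl1) to 2.95 (Sorcs3), and 4 of the 5 lists hold genes called in both directions.

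Among all 10204 genes, those with the values most like the 3 members that differed most were Dkk2 for Bdnf, Pllp for Ntf3 and Ilkap for Gfra1. Likeness was the Euclidean distance over the 4 libraries in log2(FPKM + 1), which was 0.174, 0.058 and 0.128. Dkk2 had 10.6 and 10.3 FPKM in mouse and 0.011 and 0.025 in ferret libraries, and Pllp, a myelin-associated membrane protein gene, had 9.70 and 9.99 FPKM in ferret and 0.577 and 0.791 in mouse libraries.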

How the data were processed

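Ferret and mouse reads were mapped by the authors with STAR 2.7.0f, and the deposited FPKM, 1 value per gene and library, came from Cufflinks 2.2.1 with the Ensembl annotation of the ferret (MusPutFur1.0) and of the mouse (GRCm38). FPKM holds no read counts. The paper states that it lists read counts and gene lengths, which were not used here. Depth was therefore not examined, and no counting interval is given. Steps between the lowest values give only relative depth, 1.17 for ferret replicate 1 against 2 and 0.834 for mouse replicate 1 against 2. FPKM over the shared symbols added up to 227391 and 236543 in ferret and to 300465 and 308121 in mouse libraries, so scaling between species was varied.

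Symbols were matched in upper case, and the highest value was used where a symbol had several. limma 3.58.1 (R 4.3.3, trended empirical Bayes) was fitted on log2(FPKM + 1) to all genes with a species mean of at least 1, the libraries grouped by species from the labels. Tested on simulated data for this comparison (10204 genes, 200 changed by a log2 value of 1.5), it recovered 98% of the changed genes with 0 false calls. The simulated noise followed the spread between duplicates and held no shift from scaling or annotation. False calls from such shifts were therefore not tested. Alternatives were a pseudocount of 0.1, no filter, 3 other scalings, summed values of a symbol, no trend, the replicate number as a block, and each library left out. Mouse coordinates and overlaps are from GENCODE M21 on GRCm38, a release other than that of the authors. Python 3.11.15 with pandas 2.3.3 was used for joins.

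The members and lists were chosen with earlier results of these data known. By rule, the text named all members, in each pathway list the 3 most abundant genes and the 2 called genes that differed most, and, of each cell type list, markers among its most abundant or listed at 0. Some genes of the lists are not reported here and were left out of the lists' counts and sums. Genes outside the rule are named as such, and Cdh19, Pdgfra, Slc1a2, Slc1a3, Aqp4, Gja1 and Cntfr are among them. The replicate numbers come from the titles alone, and the deviations of same-numbered libraries had a correlation of 0.01.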

Additional observations from a re-analysis of the deposited data

How the results depend on the processing

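The 6 members that were called kept their direction and their call under all 12 alternatives, and Ntrk3 was called under none. Not all of these could move a member. No filter, summed values of a symbol, no trend and the replicate block cannot change a member's log2 difference, only its adjusted p. Gdnf was called only where every library was set to a sum of 1000000, at a log2 difference of 1.17, and its values ranged from 0.50 to 1.17. Cntf reversed to 0.25 with library sums of 1000000, to 0.25 with library sums set to their mean and to 0.17 after quantile normalization. These scalings moved the median of all genes from -0.35 to -0.01, -0.01 and 0.06. The genes of the CNTF receptor list called lower went from 4 to 2, 2 and 2. Over all genes, those called higher went from 1336 to 2197 with the sum of 1000000 and to 2107 after quantile normalization, and those called lower went from 3069 to 2040 after quantile normalization. With each library left out in turn, the log2 difference of Bdnf ranged from -3.49 to -3.37, that of Ntf3 from 2.64 to 2.79, that of Ngfr from 2.46 to 2.75 and that of Ntrk3 from -0.62 to -0.35. A species left with 1 library is assumed to vary like the other.

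With the replicate number as a block, no log2 difference can change, because the replicate numbers are balanced over the species. Only the adjusted p can change. Every member's call stayed as it was (Bdnf at -3.43, adjusted p = 8.89e-12 by limma), with 1342 genes called higher and 3072 lower. Depth was not examined, which limits what can be said of values well under 1 FPKM, such as ferret Bdnf.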

Other observations

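Neurotrophin-4, another ligand of TrkB, carries a different symbol in each annotation (NTF4 in the ferret, Ntf5 in the mouse), so the gene was in no comparison. It was low in all 4 libraries, with 0.121 and 0.142 FPKM in ferret and 0.370 and 0.258 FPKM in mouse astrocytes.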
